A study of Mus musculus with 18 samples.

Results

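The genes described here are 7 transcripts that interferons induce, Ifit1, Ifit2, Ifit3, Irf7, Isg15, Cmpk2 and Rsad2, together with Tnfsf10, a death ligand that interferons can also induce. They were taken by gene symbol from the array's annotation, with the brightest probe set kept per gene, so the genes were chosen by symbol and the probe sets selected on mean signal. Of the 8 genes, 7 had a probe set of their own among 19938 genes measured, and each had 1, so brightness decided nothing. The only probe set that names Isg15 also names Gm9706, so no value is given for Isg15. All 7 measured genes passed the filter on low values, which left 13318 genes in muscle and 13431 in heart. The list was drawn up with results of these arrays known, and Tnfsf10 had been singled out by the difference between its knockout effects in 2 muscles, so its values in the muscle arrays are given as a description without p-values.

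RNA from 18 whole-transcript mouse arrays was studied, 3 in each of 6 groups, all on a C57BL/6 background. KO muscles, soleus and quadriceps, came from mice with a floxed Egln1 gene and a skeletal muscle Cre recombinase that tamoxifen activates. WT muscles came from mice with the same recombinase and unmodified Egln1, and both genotypes received tamoxifen for 3 days before tissue was taken. Hearts came from Egln1 wild-type mice given the EglN inhibitor FG-4497 into the peritoneum at 50 mg per kg, or vehicle. The promoter driving the recombinase, the age of the mice and the time between FG-4497 and tissue collection are not given in the labels. Labels place the muscle groups in skeletal muscle, and Acta1, skeletal muscle actin, lay between 14.22 and 14.32 on the log2 scale in all 12 muscle arrays. Myh6, the atrial and ventricular myosin of the adult mouse heart, lay between 14.06 and 14.15 in all 6 heart arrays.

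Type I interferons bind the receptor subunits Ifnar1 and Ifnar2, and the kinases Jak1 and Tyk2 then pass the signal to the nucleus. It acts there through interferon-stimulated response elements, in which a GAAA repeat follows another after any pair of bases, and switches on genes that block viral replication. Most tissues express these genes at a low tonic level without infection. EglN1, also called PHD2, hydroxylates HIF alpha, the oxygen-regulated part of the hypoxia-inducible factor, and so has it degraded while oxygen lasts, and FG-4497 inhibits the EglN enzymes.

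The promoters are shown because the genes differ in whether the response element spelling occurs there. The interferon-stimulated response element, as defined above and without mismatches, was searched on both strands in the 250 bases before and 50 after each RefSeq gene start (GRCm38.p6), and occurred in the promoters of 4 of the 8 genes, against 3.443% of 32851 promoters. Ifit1 and Ifit3 held 2 copies each, Rsad2 held 1 and Isg15 held 3 that overlap. The promoters of Cmpk2, Tnfsf10, Irf7 and Ifit2, the last with 2 annotated starts, held no copy in this window. Sequences run 5′ to 3′ in the direction of transcription, and capitals mark the motif, which here lies on the opposite strand.
Ifit1, chr19:34640639-34640938, plus strand: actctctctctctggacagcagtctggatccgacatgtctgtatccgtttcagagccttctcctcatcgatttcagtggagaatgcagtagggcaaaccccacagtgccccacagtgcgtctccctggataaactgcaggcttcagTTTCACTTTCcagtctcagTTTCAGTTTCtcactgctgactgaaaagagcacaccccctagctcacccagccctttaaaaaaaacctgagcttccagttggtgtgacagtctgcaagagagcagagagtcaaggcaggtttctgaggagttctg
Ifit3, chr19:34583279-34583578, plus strand: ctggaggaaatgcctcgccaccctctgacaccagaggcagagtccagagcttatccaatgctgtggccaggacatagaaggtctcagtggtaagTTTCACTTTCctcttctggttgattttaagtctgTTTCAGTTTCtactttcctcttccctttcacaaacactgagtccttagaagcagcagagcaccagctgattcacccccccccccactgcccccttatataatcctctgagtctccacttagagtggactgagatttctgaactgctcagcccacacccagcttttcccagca
Rsad2, chr12:26456403-26456702, minus strand: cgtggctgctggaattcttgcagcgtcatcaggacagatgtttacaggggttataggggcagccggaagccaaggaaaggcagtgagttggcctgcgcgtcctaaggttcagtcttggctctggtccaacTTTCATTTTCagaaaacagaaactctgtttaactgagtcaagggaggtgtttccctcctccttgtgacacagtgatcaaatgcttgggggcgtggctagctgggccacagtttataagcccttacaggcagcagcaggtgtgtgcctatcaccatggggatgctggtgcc
Cmpk2, chr12:26468965-26469264, plus strand: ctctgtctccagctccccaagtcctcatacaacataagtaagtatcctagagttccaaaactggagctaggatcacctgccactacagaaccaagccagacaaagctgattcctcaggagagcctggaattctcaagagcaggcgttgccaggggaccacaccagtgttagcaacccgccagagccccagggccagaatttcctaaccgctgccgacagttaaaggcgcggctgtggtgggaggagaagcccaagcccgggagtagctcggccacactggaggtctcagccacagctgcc
Tnfsf10, chr3:27316827-27317126, plus strand: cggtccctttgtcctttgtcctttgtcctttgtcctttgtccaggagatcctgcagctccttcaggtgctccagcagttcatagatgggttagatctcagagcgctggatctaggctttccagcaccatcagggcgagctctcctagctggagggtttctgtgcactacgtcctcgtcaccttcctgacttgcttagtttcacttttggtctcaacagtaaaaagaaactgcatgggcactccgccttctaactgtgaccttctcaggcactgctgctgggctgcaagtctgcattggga
The first Ifit1 copy begins 104 bases and the second 85 bases before the start, the Ifit3 copies 156 and 122, and the Rsad2 copy 120. The HIF core ACGTG occurred in none of the 8 genes' promoters, against 19.625% of promoters, and GCGTG occurred in 2, Rsad2 and Ifit2, against 32.386%. Rsad2 and Cmpk2 are neighbours on chromosome 12, 12.665 kb apart and transcribed away from each other, and Ifit2, Ifit3 and Ifit1 lie within one cluster on chromosome 19. A motif match describes letters and not binding.

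Array medians ran from 6.68 to 6.81, and r between replicates from 0.986 to 0.995. Egln1 was lower in KO than in WT on all arrays of both muscles without passing the test (-0.20, SE 0.07, limma adjusted p = 0.438 in soleus; -0.14, SE 0.07, adjusted p = 0.470 in quadriceps). The labels do not say whether its probe set lies in the deleted part. Of 20 tested HIF targets, 14 were called higher in heart after FG-4497, led by Adm at 3.25, and none lower. Of all tested genes 1.3% were called higher there and 0.477% lower. In sign, 19 of the 20 were higher and 1 lower. In KO muscle 1 of 20 was called in quadriceps, Stc2 at 0.78, against 0.683% of all genes. None was called in soleus, against 0.18% of all genes.

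In heart, Tnfsf10 and Cmpk2 were lower after FG-4497, while the other 5 measured genes did not pass the test. Tnfsf10, which encodes TRAIL, a ligand that triggers apoptosis through death receptors, read 6.42, 6.80 and 6.52 in FG-4497 hearts, against 7.74, 7.69 and 7.81 in vehicle hearts. The groups were far apart, and the highest treated heart lay below the lowest vehicle heart. The difference was -1.17 on the log2 scale (SE 0.10, limma adjusted p = 0.000198), or 2.24-fold lower, and was the second largest of 64 falls called in heart. Cmpk2, a mitochondrial nucleotide kinase, read 6.84, 6.83 and 6.93 in FG-4497 hearts, against 7.47, 7.42 and 7.31 in vehicle hearts. Its groups did not overlap either, and the difference was -0.53 (SE 0.08, adjusted p = 0.00795), or 1.45-fold lower. So 2 of 7 genes were called lower and none higher, against 0.477% of all tested genes called lower and 1.3% called higher. The list was drawn up with results of these arrays known, so nothing is read from the count.

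**Figure D1:**
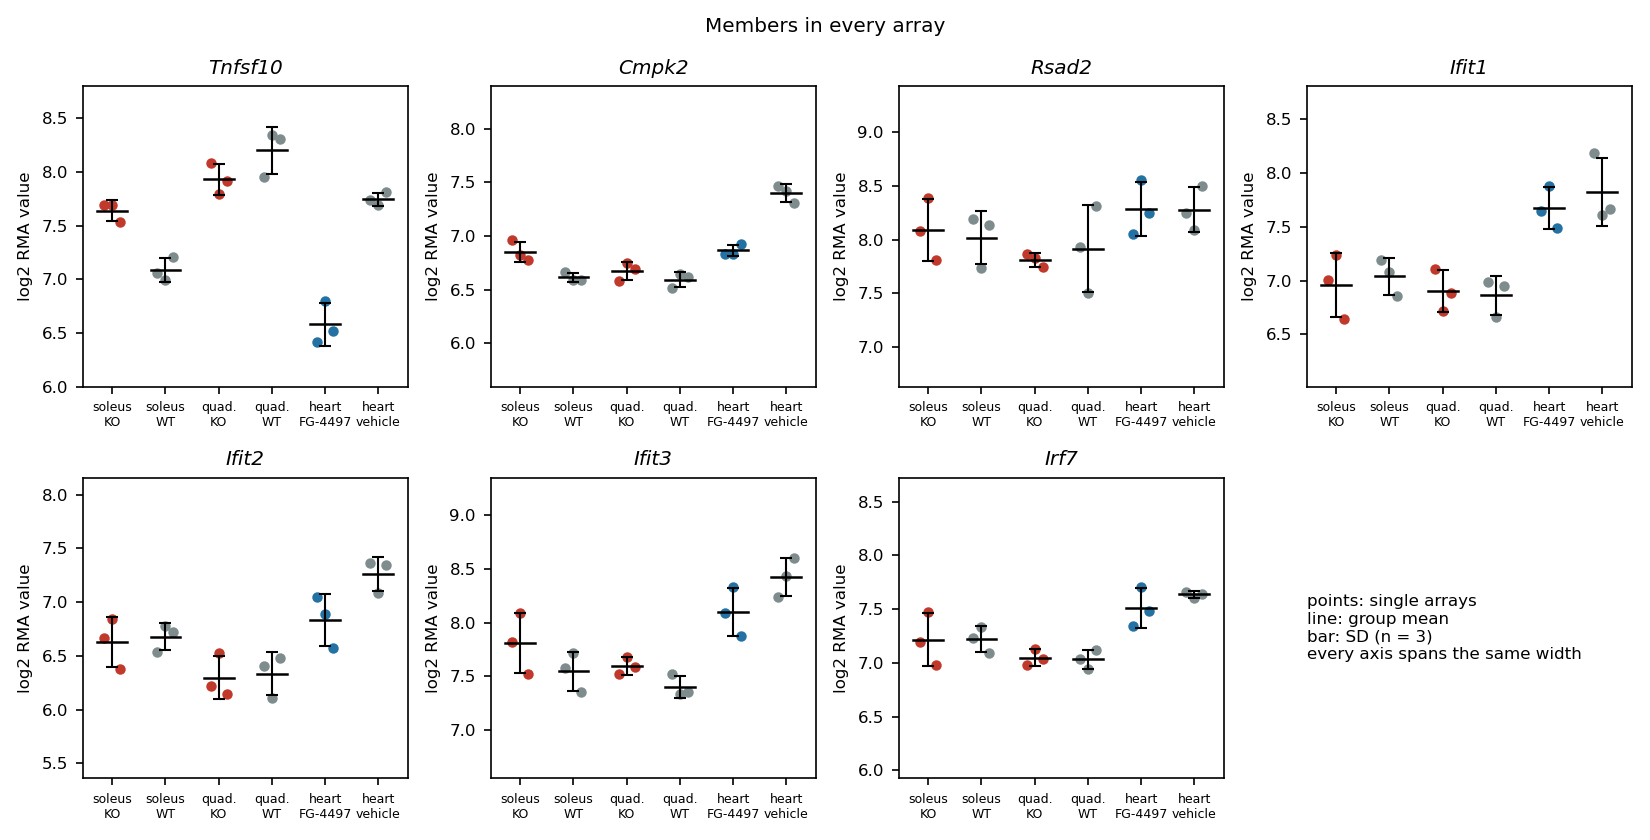
Log2 RMA values (y axes, all of the same width) of the 7 measured genes in the 6 groups on the x axis, with single arrays as points and group mean and SD as black lines (n = 3). Tnfsf10 is lowest in FG-4497 hearts, and Cmpk2 is higher in vehicle hearts than in any other group.

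The IFIT genes encode RNA-binding proteins that restrict viral translation. Ifit2 read 7.05, 6.89 and 6.57 in FG-4497 hearts, against 7.37, 7.08 and 7.34 in vehicle hearts. All treated hearts lay below all vehicle hearts, but the difference of -0.43 (SE 0.13, adjusted p = 0.170) did not pass. Arrays of the groups did not overlap for 3 of the 7 genes, all lower, against 7.09% of all genes lying lower without overlap. Nothing is read from this count either, since the list was drawn up with results of these arrays known. Ifit3 read 8.09, 8.33 and 7.88 in FG-4497 hearts, against 8.24, 8.43 and 8.60 in vehicle hearts, and the groups overlapped (-0.33, SE 0.13, adjusted p = 0.348). Its near copy Ifit3b had its own probe set, dim in every group at 3.95 to 5.44 and below the filter, and signal shared between the 2 genes cannot be told apart here. Ifit1 read 7.65, 7.88 and 7.49 in FG-4497 hearts, against 8.18, 7.61 and 7.67 in vehicle hearts (-0.15, SE 0.15, adjusted p = 0.862), with overlap.

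Irf7, the transcription factor that amplifies type I interferon production, read 7.34, 7.71 and 7.48 in FG-4497 hearts, against 7.66, 7.61 and 7.64 in vehicle hearts. The vehicle hearts lay close together within the spread of the treated ones, and the difference was -0.13 (SE 0.10, adjusted p = 0.790). Rsad2, which encodes viperin, an antiviral enzyme, read 8.06, 8.55 and 8.25 in FG-4497 hearts, against 8.25, 8.09 and 8.50 in vehicle hearts. It was level between the groups at 0.01 (SE 0.14, adjusted p = 0.996), with a 95% interval of -0.30 to 0.32. Its neighbour Cmpk2 fell, but the difference between their responses was not tested.

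In a bulk sample, fewer cells of a type and less RNA per cell cannot be told apart, so markers of other cells are given beside these falls. The mean log2 level of 16 macrophage and leukocyte markers was 7.99, 8.28 and 8.19 in FG-4497 hearts, against 8.15, 8.18 and 8.21 in vehicle hearts, and no marker was called. With that level as a covariate Tnfsf10 stood at -1.14 and Cmpk2 at -0.53, both still called. The groups overlapped in that level, so the covariate could take up little, and the part of leukocytes in the falls was not tested. Endothelial markers (12) averaged 9.90, 9.98 and 9.99 in FG-4497 hearts, against 9.81, 9.78 and 9.86 in vehicle hearts. Their mean was higher in every treated heart, but 6 of 12 were higher and 6 lower in sign, with a list median of 0.0045. Only 1 was called, Cldn5, a tight junction protein, at 1.44. Erythroid and platelet markers (4) averaged 8.43, 8.82 and 8.84 in FG-4497 hearts, against 8.30, 8.39 and 8.14 in vehicle hearts, with 3 of 4 higher in sign and a list median of 0.39. Of these 1 was called, Alas2, the haem synthesis enzyme of red cell precursors, at 0.96 (SE 0.15, adjusted p = 0.00799). The part of these cells in the falls was not tested. No T and NK cell marker (5 tested) or plasmacytoid and dendritic cell marker (4 tested) was called. Lower in sign were 3 of the 5 and 3 of the 4, with list medians of -0.018 and -0.13. No fibroblast marker (9 tested) was called, with 8 lower in sign, 1 higher and a list median of -0.051. The part of these cell types was not tested either. RMA values have no zero, so no marker can be given as absent.

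Other genes of the same pathways were counted from lists. Of 14 listed GTPases induced mainly by interferon gamma, 7 were measured and 6 were tested in heart. Of these 6, 3 were called lower and none higher, against 0.477% of all tested genes called lower. All 6 were lower in sign, with a list median of -0.42 against -0.0020 over all genes. Gbp4, a guanylate-binding protein, had 7.79, 7.80 and 7.90 in FG-4497 hearts, against 8.67, 8.54 and 8.50 in vehicle hearts (-0.74, SE 0.08, adjusted p = 0.000906). Iigp1, an immunity-related GTPase, had 7.68, 8.02 and 7.87 in FG-4497 hearts, against 8.28, 8.39 and 8.55 in vehicle hearts (-0.55, SE 0.11, adjusted p = 0.0300). Gbp7 stood at -0.36 (SE 0.08, adjusted p = 0.0451). The arrays of the groups did not overlap for any of these 3, against 7.09% of all genes lying lower without overlap. The lists were chosen with earlier results of these data known, so nothing is read from their counts.

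Among 33 tested other interferon-induced effectors, 1 was called lower and none higher, beside the same 0.477% of all tested genes called lower. It was Sp100, a nuclear body protein, at -0.52 (SE 0.09, adjusted p = 0.0180), and the list median was -0.055. None of 10 ligands and receptors, 15 signalling genes or 13 nucleic acid sensors was called. Lower in sign were 6 of the 10, 9 of the 15 and 9 of the 13, with list medians of -0.039, -0.043 and -0.055. The single largest changes in the signalling and sensor lists were higher in sign, however. They were Irf8, a myeloid transcription factor, at 0.56 (adjusted p = 0.0900) and the kinase Tbk1 at 0.37 (adjusted p = 0.159). Among 12 genes of MHC class I presentation none was called, 10 were lower in sign, and the peptide transporter Tap1 had the largest difference at -0.34 (adjusted p = 0.0765). Neither the other 5 tested TNF superfamily ligands nor the 9 genes of Tnfsf10 receptors and death signalling held a called gene.

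**Figure D2:**
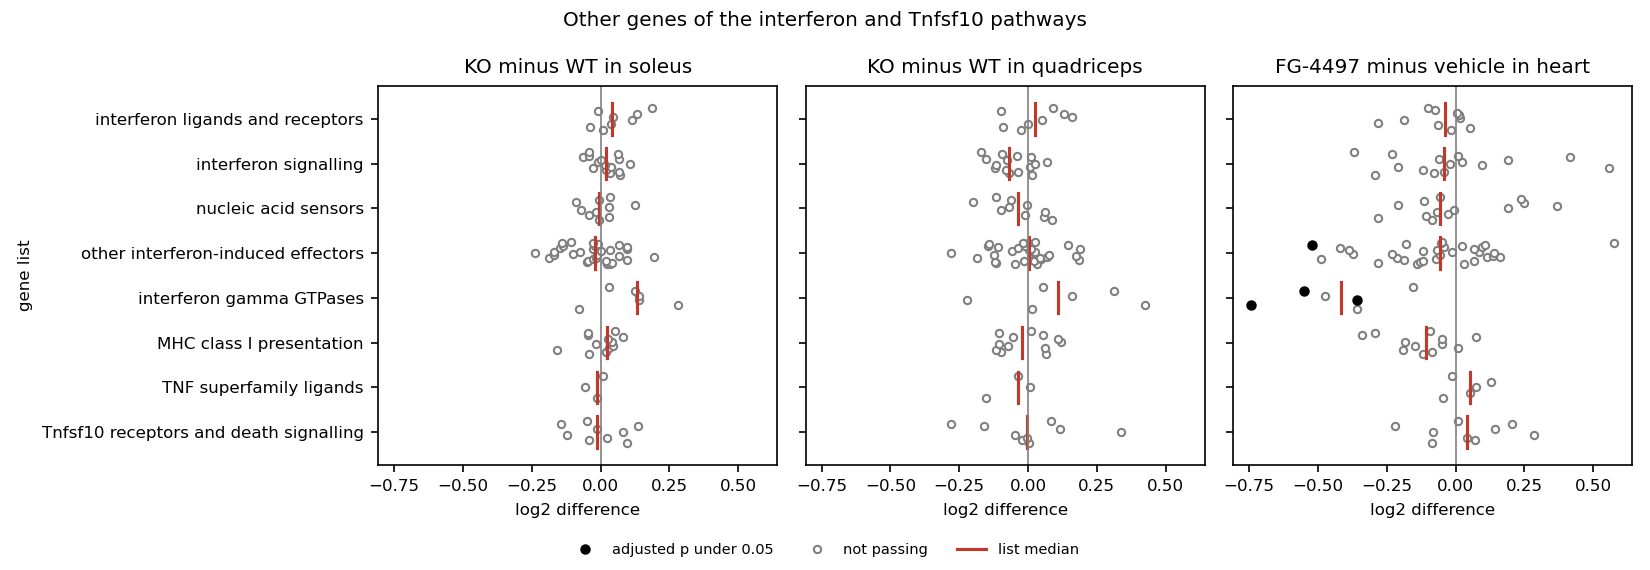
Log2 differences (x axis) of every tested gene in 8 lists (y axis) for KO against WT in soleus and in quadriceps and for FG-4497 against vehicle in heart. Filled points passed at an adjusted p under 0.05 and red bars are list medians: the 4 filled points are all in heart and lie below 0.

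In KO soleus none of the 6 measured interferon-induced genes was called, against 0.18% of all tested genes (24 of 13318). Among these 6, Cmpk2 alone had an unadjusted p under 0.05 in limma, where 963 of all tested genes did. Tnfsf10 read 7.70, 7.69 and 7.53 in KO soleus, against 7.06, 6.99 and 7.21 in WT soleus. All KO arrays lay above all WT arrays, and the difference was 0.55 (SE 0.10), given as a description. Cmpk2 read 6.96, 6.83 and 6.78 in KO soleus, against 6.67, 6.59 and 6.59 in WT soleus, also without overlap (0.24, SE 0.07, adjusted p = 0.298). Arrays lay higher without overlap for these 2 of 7 genes and for 6.4% of all genes, and nothing is read from the count, since the KO soleus value of Tnfsf10 is part of what singled it out.

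Ifit3 was at 0.26 in KO soleus (SE 0.12, adjusted p = 0.699), with overlapping arrays. The remaining 4 genes differed by -0.08 for Ifit1, -0.05 for Ifit2, -0.0038 for Irf7 and 0.07 for Rsad2, with overlap and adjusted p of 0.975, 0.985, 0.996 and 0.984. KO replicate 3 was the lowest of its group in all 7 genes, and replicate 2 was the highest in 5. In that replicate 3 the leukocyte markers averaged 7.29, against 7.59 and 7.90 in the other KO soleus arrays, and the fibroblast markers averaged 8.996, against 9.61 and 9.91. The part of these cells in that spread was not tested.

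In KO quadriceps none of the 6 interferon-induced genes was called, against 0.683% of all genes. None had an unadjusted p under 0.05 in limma, where 1543 of all tested genes did. Tnfsf10 read 8.08, 7.80 and 7.91 in KO quadriceps, against 7.95, 8.34 and 8.31 in WT quadriceps. The groups overlapped, and the difference was -0.27 (SE 0.10). Ifit3 read 7.52, 7.68 and 7.59 in KO quadriceps, against 7.52, 7.33 and 7.35 in WT quadriceps, and the lowest KO array lay just above the highest WT array (0.20, SE 0.12, adjusted p = 0.602). It was 1 of 7 genes lying higher without overlap, against 5.66% of all genes. The other 5 differed by between -0.10 for Rsad2 and 0.08 for Cmpk2. No gene of the interferon or TNF lists was called in either muscle, and the one nearest the threshold in quadriceps was the death receptor Tnfrsf10b, a receptor for Tnfsf10, at 0.34 (SE 0.08, adjusted p = 0.0751).

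**Figure D3:**
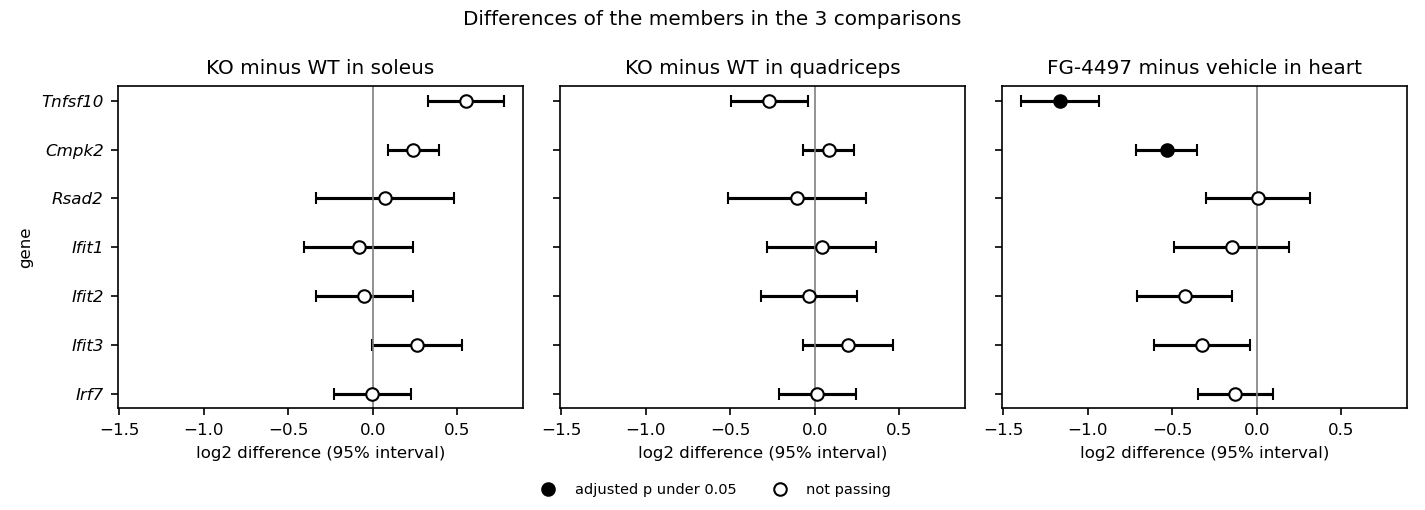
Log2 differences with 95% intervals (x axes) of the 7 genes (y axis) for KO minus WT in each muscle and FG-4497 minus vehicle in heart. Filled points passed at an adjusted p under 0.05: Tnfsf10 and Cmpk2 in heart. The muscle values of Tnfsf10 singled it out, so its fill and intervals there are not read as a test.

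Averaged over both muscles, none of the 6 interferon-induced genes passed, against 0.833% of all genes. Ifit3 stood at 0.23 (SE 0.09, adjusted p = 0.367) and Cmpk2 at 0.16 (SE 0.05, adjusted p = 0.229). The knockout effects of Tnfsf10 had opposite signs in the 2 muscles, and their difference of 0.82 (SE 0.14) is the value that singled the gene out. The test of that difference is therefore not read for Tnfsf10. Of the other 6 genes none was called, against 0% of all genes. None of them had an unadjusted p under 0.05 in limma, where 854 of all tested genes did.

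Numbers in the labels, read here as animal numbers, join 1 soleus and 1 quadriceps array in each of 6 mice. Soleus minus quadriceps for Tnfsf10 was -0.39, -0.10 and -0.38 in the KO mice, against -1.25, -0.95 and -1.13 in the WT mice. Quadriceps was the higher muscle in all 6 mice, and the gap was narrower in each KO mouse than in each WT mouse. For Cmpk2 the same differences were 0.37, 0.08 and 0.09 in KO mice, against 0.05, 0.08 and -0.05 in WT mice, and they too did not overlap, though by little. Animals lay apart, with KO mice higher, for these 2 of 7 genes and for 7.65% of all genes, and nothing is read from the count, since this difference singled Tnfsf10 out. Slow fibre markers (10) averaged 7.62 to 9.42 in KO and 7.63 to 8.79 in WT quadriceps, and 13.22 to 13.32 in KO and 13.31 to 13.39 in WT soleus. Fast fibre markers (10) averaged 13.55 to 13.67 in KO and 13.49 to 13.61 in WT quadriceps, and 13.28 to 13.32 in KO and 12.93 to 13.42 in WT soleus. The part of fibre content in these muscle differences was not tested.

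**Figure D4:**
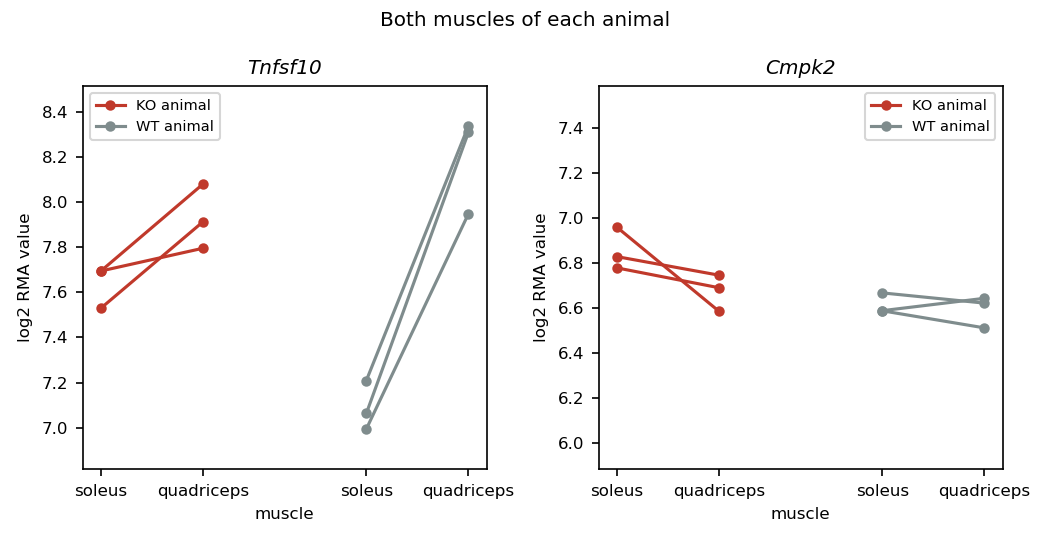
Log2 RMA values (y axes) of Tnfsf10 and Cmpk2 in soleus and quadriceps (x axes), with a line joining both muscles of each mouse. For Tnfsf10 the lines of the 3 KO mice are flatter than those of the 3 WT mice.

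The order of the groups by level was not the same for all genes, though Ifit1 and Irf7 shared one order and Ifit3 and Cmpk2 another. Tnfsf10 was highest in WT quadriceps at 8.20 ± 0.22 (SD, n = 3), then 7.93 ± 0.14 in KO quadriceps, 7.74 ± 0.06 in vehicle heart and 7.64 ± 0.10 in KO soleus. Each of these 4 overlapped its neighbour in the order. WT soleus followed at 7.09 ± 0.11 and FG-4497 heart at 6.58 ± 0.20, each apart from the group above it. Cmpk2 was highest in vehicle heart at 7.40 ± 0.08, apart from FG-4497 heart at 6.87 ± 0.05, which overlapped KO soleus at 6.85 ± 0.09. It then stood at 6.67 ± 0.08 in KO quadriceps, 6.61 ± 0.05 in WT soleus and 6.59 ± 0.07 in WT quadriceps.

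For Ifit1, Ifit2, Ifit3, Irf7 and Cmpk2, every vehicle heart lay above all 12 muscle arrays, which was not so for Rsad2 and Tnfsf10. Heart and muscle came from separate experiments, so tissue and experiment cannot be told apart. Rsad2 spanned only 7.81 to 8.29 in group means, and each group overlapped the next in that order.

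Between WT soleus and WT quadriceps 1 of the 6 interferon-induced genes was called, Ifit2, which was higher, where 21.3% of all tested genes were called higher and 24.4% lower. Tnfsf10 is left out of that count, since its WT values are part of what singled it out. Tnfsf10 averaged 7.09 in WT soleus, against 8.20 in WT quadriceps (-1.11, SE 0.10). Ifit2 read 6.54, 6.78 and 6.72 in WT soleus, against 6.41, 6.10 and 6.48 in WT quadriceps, without overlap (0.35, SE 0.12, adjusted p = 0.0310). The WT quadriceps values are dim, near the muscle filter level of 6.19. This called difference was not stable. It was no longer called in 8 of 15 alternatives (adjusted p 0.000794 to 0.963), and with replicate 2 of WT quadriceps left out the difference was 0.23.

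Likeness of pattern was described by Pearson r over the 18 arrays after each group mean was removed, among 12947 genes. Within the 7 genes, Ifit3 and Irf7 were most alike (r = 0.760), and Cmpk2 followed none of the others, with r of -0.21 to 0.13. The mean of the 6 interferon-induced genes was most like Lima1 (r = 0.930), Aox1 (0.919), Cmtm3 (0.905), Cd34 (0.899) and St3gal4 (0.872). Tnfsf10 was most like Rtn4 (r = 0.832), Ecscr (0.824), Unc5b (0.809), Lpar6 (0.794) and Gosr2 (0.794). These r values are the highest of many and share arrays and sample composition, so they carry no p.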

How the data were processed

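The authors deposited log2 values made with RMA (robust multi-array average, which corrects background, normalizes by quantiles and combines probes), per the submitters' processing notes; neither its version nor which arrays were normalized jointly is stated there. Of 35556 probe sets, 21789 named 1 gene, 1621 several and 12146 none in the platform annotation, and 21698 symbols were updated through RefSeq (GRCm38.p6). Genes with a mean at or above the 40th percentile were tested (6.19 in muscle, 6.26 in heart).

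Tests used limma 3.58.1 in R 4.3.3 (lmFit, eBayes), with Benjamini-Hochberg adjustment over all genes and calls at an adjusted p under 0.05. The 12 muscle arrays shared 1 fit in which animal was a random block (consensus correlation 0.17); the 6 heart arrays had their own. The pairing comes from numbers in the labels: deviations of the 6 pairs correlated at r of -0.00048 to 0.377, 4 above 0.1. The labels call the samples biological replicates. No arrays were identical. Intensities have no read depth, so 3 arrays per group limit precision, and the smallest exact p for 3 against 3 is 0.1. The fit was tested on simulated data with independent noise on every array, which does not test the animal block.

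The genes and lists were chosen with earlier results of these data known. Named genes are the 8 listed, Egln1, up to 4 called genes per list and comparison or else the 1 with the largest change, and the 5 most alike in pattern; Ifit3b and, outside that rule, Myh6 and Acta1 were added as checks. Promoters were searched in RefSeq sequence. Alternatives were the filter, normalization, probe set rule, variance prior, array weights, blocks, marker covariates, single-muscle fits and leaving out replicates.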

Additional observations from a re-analysis of the deposited data

How the results depend on the processing

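Tnfsf10 and Cmpk2 stayed called in heart in all 13 alternatives that tested them, at -1.28 to -1.08 (adjusted p 3.44e-06 to 0.00222) and -0.58 to -0.50 (adjusted p 0.00626 to 0.0376). The filter at the 60th percentile left only 4 of the genes tested in heart, neither of these among them, and a count of 0. Counts in muscle given in this section include Tnfsf10, which the muscle arrays singled out, so its part in them is no evidence. The count in KO soleus was 1 (Tnfsf10) with estimated array weights, the slow fibre covariate or the trended and robust prior. For the difference of the knockout effects, leaving out 1 array gave 0 to 1 (Tnfsf10, without WT quadriceps replicate 1). Between WT soleus and WT quadriceps the count was 2, Ifit2 and Tnfsf10. It was 1 with the 60th percentile filter, with repeated quantile normalization, without the animal block and with the replicate block of title numbers. With an array left out it was 1 to 2, and with the slow fibre covariate 0. Under that covariate Ifit2 turned to -0.14 and Tnfsf10 to -0.04, and 45 genes in all were called in place of 6089; slow fibre level separates the 2 muscles, so the covariate takes up their difference by construction. Irf7 was called there in 1 of 15 alternatives.

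Of 42 results of single genes, 37 kept their side of the threshold throughout. Across the alternatives 63 differences changed sign. Among these was 1 reversed call, Ifit2 between WT soleus and WT quadriceps with the slow fibre covariate. The replicate block changed no other call of these genes. Counts over all genes ranged from 137 to 373 in heart (238), 7 to 62 in soleus (24), 25 to 197 in quadriceps (91), 62 to 215 averaged (111) and 0 to 4 for the difference (0). With 3 arrays per group, small differences of dim genes are not resolved. The cause of the other changes was not tested.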

Other observations

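Other genes of the pathways differed between WT soleus and WT quadriceps, where 21.3% of all tested genes were called higher and 24.4% lower. Of 31 interferon-induced effectors, 12 were higher in WT soleus and 2 lower, with a list median of 0.17, and of 10 nucleic acid sensors 3 were higher and none lower. Of 15 signalling genes, 5 were lower and none higher, among them Irf8 at -0.84 (SE 0.09, limma adjusted p = 4.04e-06). Of 6 interferon gamma GTPases, 3 were higher and 1 lower, with a list median of 0.25, including Gbp4 at 0.93 (SE 0.14, adjusted p = 0.000149) and, as the one that was lower, Gbp7 at -0.95 (SE 0.13, adjusted p = 4.51e-05). Endothelial markers were higher in WT soleus for 11 of 12 genes (list median 0.60), and their part in these differences was not tested. These genes were picked for this comparison after their values were seen.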
